A study of Mus musculus with 2 samples.

Results

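Nr1d1, Nr1d2, Rora and Nfil3 form the arm of the circadian clock that is built from the Rev-erb and ROR nuclear receptors and the basic leucine zipper repressor Nfil3. They were chosen by symbol, and all 4 were found among the 55487 genes of the expression table. The study read single CD4+ T cells, the helper and regulatory lineage, taken by sorting from the visceral fat (VAT) and the spleen of Treg-bmal1WT and Treg-bmal1KO mice. All groups carry the Foxp3.Cre-YFP allele on C57BL/6, in which the promoter of Foxp3, the defining factor of regulatory T cells (Tregs), drives Cre recombinase, so that the labelled loss of Bmal1 is tied to cells with a history of Foxp3 expression. Animals were kept under a reversed light cycle and sampled at ZT0 or ZT12, where ZT is the time in hours counted from lights on, and no age is given in the labels. The 2 tissues, 2 genotypes and 2 times make 8 possible combinations. Cells were tagged with hashing antibodies and pooled into 1 expression library and 1 hashtag library.

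Hashtags 1 to 6 carried the counts, and hashtags 7 to 10 held only 278, 10, 172 and 7. The 6 hashtags are fewer than the 8 combinations, and whether all 8 are among these cells cannot be told. The labels tie none of the hashtags to a tissue, genotype or time. Each hashtag is therefore given by itself. The hashtags are not replicates, no genotype or time comparison could be made, and no p-value is given for any value here. All intervals are exact 95% intervals for counting error alone. Hashtags are called apart where the intervals of their levels do not overlap; the interval of a ratio, given as well, can lie off 1 where the level intervals still overlap. After demultiplexing with HTODemux and a filter of at least 500 genes and under 10% mitochondrial UMIs (unique molecules), 13599 single-tag barcodes were kept, of which 12685 were T cells with 44076338 UMIs. Per hashtag there were 1283 to 3293 T cells, with a median of 2800 to 3765 UMIs per cell. The members were read at low counts, with 179 UMIs for Nr1d1, 612 for Nr1d2, 4420 for Rora and 684 for Nfil3 over all gated T cells.

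In the mammalian clock, Bmal1 and Clock bind E-box elements and drive transcription of Nr1d1 and Nr1d2, which encode the repressors Rev-erb alpha and Rev-erb beta. Rev-erbs and the activator ROR alpha, encoded by Rora, compete for the same DNA elements, called ROREs, in genes such as Arntl (which encodes Bmal1), Npas2, Cry1 and Nfil3. Rev-erbs repress through the Ncor1 and Hdac3 corepressor complex, and Nfil3 represses genes with D-box elements. In T cells Rora and Nfil3 are also known as regulators of lineage and tissue programmes, apart from the clock.

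The start regions of these genes are shown because the wiring above is written in such letters. RefSeq promoter windows (250 bases before to 50 after a gene's start, GRCm38.p6) were found for all 4 members. Both strands were searched for the E-box CACGTG, its variant CACGTT and the ROR core AGGTCA, with the sequences below read on the gene's own strand and the match in capitals. Of 32851 windows, 7.15% held CACGTG, 4.68% held CACGTT and 16.3% held AGGTCA. The Nr1d1 stretch lies at chr11:98775388-98775417 (minus strand), with the match at -28 from the start. The Nr1d2 stretch lies at chr14:18239166-18239195 (minus strand, match at -77) and the Nfil3 stretch at chr13:52981034-52981063 (minus strand, match at -12). The Nfil3 window is set on a start 1839 bases inside the outer end of the gene as RefSeq gives it, and the Rora window on one 382 bases inside, so the Nfil3 position counts from that inner start. The Arntl stretch, given as the RORE gene best known in the clock, lies at chr7:113207528-113207557 (plus strand, match at 27).
Nr1d1: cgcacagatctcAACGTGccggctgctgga
Nr1d2: gattggaagaagAGGTCAggaccgctcgtt
Nfil3: ggcgctcggaacTGACCTactaacacacat
Arntl: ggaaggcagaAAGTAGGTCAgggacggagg
The Arntl capitals hold AGGTCA with the A/T-rich letters before it that make a longer ROR element, which 0.435% of windows held. In Nr1d1 and Nfil3 the letters shown are the reverse complement of the searched motif. The Rora window held none of these motifs. Neither Rev-erb window held CACGTG, and that of Nr1d2 lacked the variant as well. Clock, Npas2 and Cry1 were also searched. A Clock window held AGGTCA, the Npas2 window held none of these motifs, and the Cry1 window held CACGTG and its variant but not AGGTCA. A match describes the letters only, and the AGGTCA of Nr1d2 and Nfil3 is a common one. Bases outside the windows were not searched.

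T cells were placed in gates by marker genes. The ST2 Treg gate held cells with an Il1rl1 UMI (Il1rl1 encodes ST2, the IL-33 receptor of adipose Tregs) and at least 1 Treg marker, 2186 cells in all. The other Foxp3 gate held 373 cells with a Foxp3 UMI and no Il1rl1 UMI, the Th1-like gate 2036 cells and the naive-like gate 3880 cells. The ST2 gate met its name in hashtags 1 to 4, where 5 adipose Treg genes outside the gate (Klrg1, Areg, Gata3, Pparg and Ccr2) summed to 2411 to 3777 CPM (UMIs of a gene per 1e+06 UMIs of the gate). In hashtags 5 and 6 its adipose Treg genes went against that name. The same genes summed to 241 and 326 CPM there, Pparg was at 0 and 7.41 CPM against 45.9 to 66.0 CPM in hashtags 1 to 4, and 94.7% and 88.5% of the gate's cells had a single Il1rl1 UMI, against 32.4% to 42.6%. Treg genes outside the gate (Capg, Itgae, Ikzf4, Ebi3 and Gpr83) summed to 632 to 659 CPM in hashtags 1 to 4 and to 323 and 222 CPM in hashtags 5 and 6. In the latter 2 the other Foxp3 gate was at 331 and 287 CPM and Th1-like cells at 137 and 159 CPM. Within the ST2 gate Itgae and Gpr83 were higher in hashtags 5 and 6 than in hashtags 1 to 4, and Capg and Ebi3 were lower. Of the cells of the ST2 gate, 14.6% to 19.0% had a Foxp3 UMI in hashtags 1 to 4 and 9.57% and 13.1% in hashtags 5 and 6, the rest having entered by other Treg markers, so Treg is here the name of a gate. Results on the ST2 gate are given with and without hashtags 5 and 6, a division made from the gate check and not from the members. Fewer cells of a kind within a gate and less RNA per cell cannot be told apart in these summed counts.

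Nr1d1 encodes Rev-erb alpha (chr11:98767932-98775377, GRCm38.p6). In the ST2 gate it was at 12.04 CPM in hashtag 1 (29 UMIs), 1.99 in hashtag 2 (4 UMIs), 10.3 in hashtag 3 (15 UMIs) and 3.40 in hashtag 4 (6 UMIs). Hashtags 5 and 6 had no UMI of it, which allows up to 8.13 and 11.1 CPM by a limit of 3 counts, and up to 10.00 and 13.67 CPM by the upper end of the exact interval. Among hashtags 1 to 4, hashtags 1 and 3 held the higher values and hashtags 2 and 4 the lower. The B cell gate, from the same droplets, was at 7.28 CPM (2.36 to 16.98; 5 UMIs in 67 cells). Its interval overlapped that of every ST2 value of Nr1d1, such as 8.06 to 17.3 CPM in hashtag 1. Pooled over hashtags, the intervals were 1.494 to 3.015 CPM in naive-like cells (34 UMIs) and 1.866 to 4.84 CPM in Th1-like cells (19 UMIs). Both lay below the B cell value but overlapped the B cell interval. How much of the B cell value is background was not tested. The ST2 intervals of hashtags 1 and 3 (5.75 to 16.95 CPM in the latter) lay above both pooled intervals, and those of hashtags 2, 4, 5 and 6 overlapped them. Within hashtag 1 the ST2 interval lay above that of Th1-like cells (1.57 to 7.16 CPM) and overlapped that of naive-like cells (1.46 to 10.5). Within hashtag 3 it overlapped both (0.426 to 6.04 CPM in Th1-like and 0.536 to 7.60 in naive-like cells). Whether the ST2 levels of Nr1d1 are the cells' own RNA was not tested. Between the hashtags the ratio of hashtag 1 to hashtag 2 was 5.46-fold (2.12 to 23.7) and that of hashtag 3 to hashtag 4 was 2.88-fold (1.11 to 9.50) although the level intervals of the latter pair overlapped, while hashtags 1 and 3 differed by 1.15-fold (0.608 to 2.35) and could not be separated. Outside the Treg gates Nr1d1 was at 4.89, 3.20, 4.94, 3.49, 2.54 and 2.62 CPM in hashtags 1 to 6. There the counting intervals of hashtags 1 to 4 all overlapped.

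Thra, which encodes the thyroid hormone receptor alpha, lies on the opposite strand and overlaps the end of Nr1d1 by 1075 bases. No source used here says whether the counting used strand, and reads of that overlap may have gone to either gene. In the ST2 gate Thra was at 37.4, 16.9, 41.8 and 15.3 CPM in hashtags 1 to 4, which is the same order of high and low hashtags as for Nr1d1. Its part in the Nr1d1 values was not tested. In naive-like cells Thra was at 23.1 to 31.2 CPM and Nr1d1 at 0 to 4.49 CPM.

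Nr1d2 encodes Rev-erb beta (chr14:18204056-18239106). In the ST2 gate it was at 20.3 CPM (15.1 to 26.9) in hashtag 1, 6.48 (3.45 to 11.1) in hashtag 2, 25.4 (17.9 to 34.9) in hashtag 3 and 4.54 (1.96 to 8.94) in hashtag 4. Hashtags 5 and 6 had 5 and 2 UMIs, or 13.6 and 7.41 CPM. The intervals of hashtags 1 and 3 lay above those of hashtags 2 and 4, as the plot of levels by hashtag shows. Hashtag 3 was 5.33-fold (2.56 to 13.9) above hashtag 4 and hashtag 1 was 3.06-fold (1.68 to 6.31) above hashtag 2. The intervals of hashtags 1 and 3 also lay above that of the B cell gate (4.37 CPM, 0.90 to 12.8; 3 UMIs), and those of hashtags 2 and 4 overlapped it. Neither hashtags 1 and 3 (0.7998-fold, 0.513 to 1.27) nor hashtags 2 and 4 (1.40-fold, 0.549 to 3.97) were separated.

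**Figure D1:**
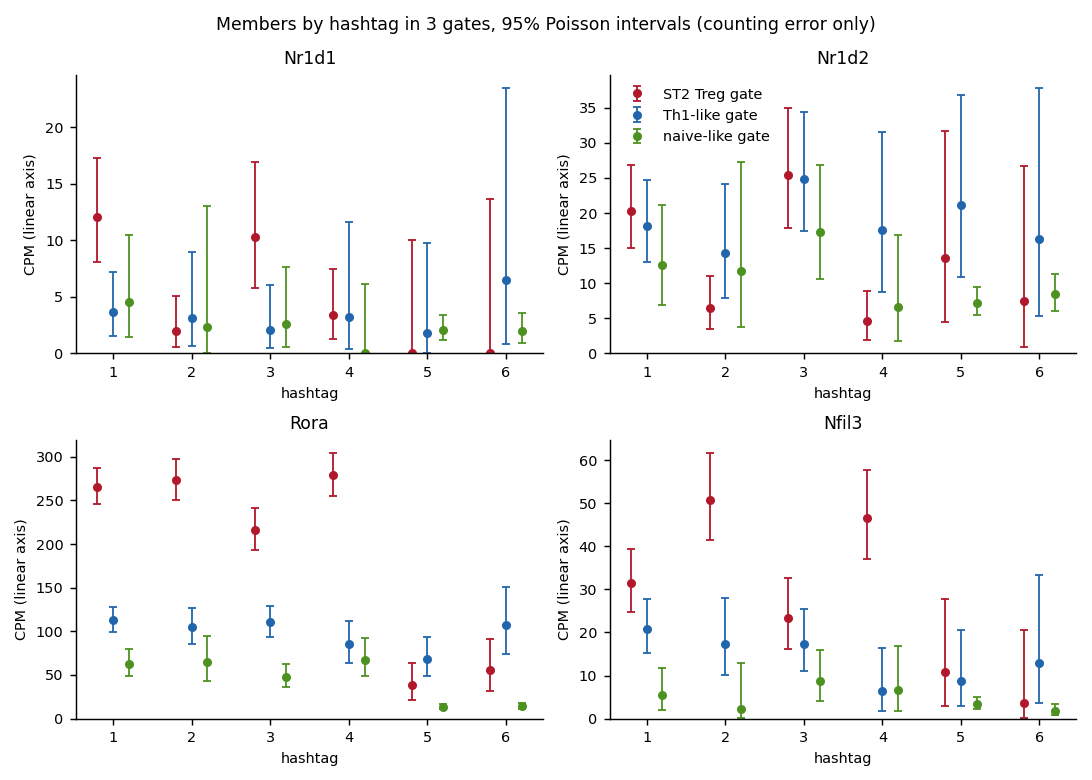
CPM of each member (linear y axes) in hashtags 1 to 6 (x axes) for the ST2 Treg, Th1-like and naive-like gates, with points for the summed UMIs of a gate in 1 hashtag and bars for 95% Poisson intervals. In the ST2 gate Nr1d2 sits at 20.3 and 25.4 CPM in hashtags 1 and 3 and at 6.48 and 4.54 CPM in hashtags 2 and 4, while Nfil3 is highest in hashtags 2 and 4.

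In Th1-like cells Nr1d2 was at 18.2, 14.4, 24.8, 17.6, 21.1 and 16.2 CPM in hashtags 1 to 6, and all 6 intervals overlapped. In all T cells outside the Treg gates it was at 16.7, 16.0, 23.8, 12.2, 10.2 and 10.8 CPM. Hashtag 3 was again the highest, 1.92-fold (1.27 to 3.06) above hashtag 4. Hashtags 1 and 2, by contrast with the ST2 gate, were at a ratio of 1.04-fold (0.729 to 1.51). The interval of the hashtag 1 to 2 ratio in the ST2 gate (1.68 to 6.31) thus lay above that in the other T cells, whereas those of the hashtag 3 to 4 ratio overlapped. The difference between the 2 cell groups was not tested.

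Rora encodes the activator ROR alpha (chr9:68653404-69388246). In the ST2 gate it was at 266, 273, 217 and 279 CPM in hashtags 1 to 4, from 316 to 640 UMIs, and at 38.0 and 55.6 CPM (14 and 15 UMIs) in hashtags 5 and 6. The latter lay within the B cell interval given below. Among hashtags 1 to 4 only hashtag 3 stood apart, with hashtag 4 1.29-fold (1.12 to 1.49) above it. That separation ended when at least 2 Il1rl1 UMIs were asked for, where the log2 ratio went from 0.37 to 0.23, and under another hashtag rule (0.21). In Th1-like cells Rora was at 113, 105, 110, 85.0, 68.5 and 107 CPM. Hashtags 1 to 4 overlapped there.

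In naive-like cells Rora was at 62.9, 65.3, 47.7 and 67.6 CPM in hashtags 1 to 4 and at 13.8 and 14.4 CPM in hashtags 5 and 6. The intervals of hashtags 5 and 6 lay below those of the other 4. Barcodes in the B cell gate, taken from the same droplets as a lineage in which little Rora is expected, read 40.8 CPM (27.1 to 58.9; 28 UMIs in 67 cells of a median 6843 UMIs, against 3865 in naive-like cells). The naive-like intervals of hashtags 1 to 4 overlapped that interval and those of hashtags 5 and 6 lay below it. How much of the B cell value is background, and whether the naive-like levels are the cells' own RNA, was not tested.

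Nfil3 encodes a repressor of D-box genes that lymphoid cells also induce after cytokine signals (chr13:52967209-52982878). In the ST2 gate it was at 31.6 CPM (24.9 to 39.5) in hashtag 1, 50.8 (41.4 to 61.7) in hashtag 2, 23.3 (16.1 to 32.6) in hashtag 3 and 46.5 (37.0 to 57.7) in hashtag 4. Hashtags 5 and 6 had 4 and 1 UMIs, or 10.9 and 3.71 CPM. Hashtags 2 and 4 were thus the high ones, where for the Rev-erbs hashtags 1 and 3 were. Hashtag 2 was 2.16-fold (1.47 to 3.32) above hashtag 3 and 1.61-fold (1.19 to 2.20) above hashtag 1, and hashtag 4 was 1.98-fold (1.32 to 3.07) above hashtag 3. Hashtag 4 was 1.47-fold (1.065 to 2.04) above hashtag 1, but the level intervals of this pair overlapped. Hashtags 2 and 4 were not separated (1.09-fold, 0.809 to 1.48).

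Outside the Treg gates Nfil3 was at 17.7, 16.4, 14.6 and 19.7 CPM in hashtags 1 to 4, with overlapping intervals, and at 6.05 and 3.59 CPM in hashtags 5 and 6. In Th1-like cells it was at 20.9, 17.4, 17.2, 6.41, 8.79 and 13.0 CPM, and those intervals overlapped as well, though the ratio of hashtag 1 to hashtag 4 was 2.93-fold (1.19 to 12.5). These 2 hashtags were apart under the stricter cell filter (log2 ratio 1.85 against 1.55). In naive-like cells it was at 1.76 to 8.67 CPM, within the interval of the B cell gate (1.46 CPM, 0.0368 to 8.11, from 1 UMI) or close above it.

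Over hashtags 1 to 4 of the ST2 gate, the interval of the highest hashtag lay above that of the lowest for Nr1d2, Rora and Nfil3, all 3 members that reached 10 CPM, and also for Nr1d1 below that level. The same held for 11.4% of 7548 genes. Over all hashtags of that gate it held for these same 3 members and for 23.4% of genes. In the Th1-like gate it held for none of these 3 members over hashtags 1 to 4 (7.45% of genes) and for Rora over all hashtags (16.1%). In the naive-like gate it held for neither Nr1d2 nor Rora over hashtags 1 to 4 (6.63%), and over all hashtags Rora alone reached 10 CPM and was apart (22.2%). In T cells outside the Treg gates it held for Nr1d2 alone of 3 over hashtags 1 to 4 (15.7%) and for all 3 over all hashtags, where 54.6% of genes did the same.

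The other clock genes were read in the same ST2 cells, from lists chosen with these data already known. Of the 5 RORE-driven genes, Npas2, Cry1 and Nfil3 had intervals apart over hashtags 1 to 4, as did 11.4% of 7548 genes. Npas2, a partner of Bmal1, was at 2.08, 19.9, 0.685 and 19.3 CPM, and Cry1, a repressor of Bmal1 and Clock, at 20.8, 47.3, 13.0 and 55.6 CPM. Both were high in the same hashtags as Nfil3. This was not limited to the ST2 gate. In T cells outside the Treg gates Npas2 was 9.36-fold (2.94 to 57.2; 14 against 3 UMIs) higher in hashtag 2 than in hashtag 1. Cry1 was 2.23-fold (1.60 to 3.13) higher there in hashtag 2 than in hashtag 3. Ratio intervals lay off 1 there in 4 of 6 pairs of hashtags for Npas2 and in 3 of 6 for Cry1. Arntl was at 22.8, 28.9, 17.8 and 26.7 CPM and Clock at 21.6, 30.4, 18.5 and 26.1 CPM, in the hashtag order of Nfil3 (2, 4, 1, 3 from the highest). Their level intervals all overlapped, but the ratio of hashtag 2 to hashtag 3 was 1.606-fold (1.005 to 2.685) for Arntl and 1.627-fold (1.029 to 2.689) for Clock. The other 5 of 6 ratios between hashtags had intervals that included 1 for both genes.

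Of the 10 E-box-driven genes, 5 reached 10 CPM, and Hlf and Bhlhe40 had intervals apart (11.4% of 7548 genes did). Hlf, a D-box activator, was at 25.3, 29.9, 21.2 and 44.8 CPM, and Bhlhe40, an E-box repressor, at 80.5, 37.9, 37.7 and 55.6 CPM. Neither followed the order of the Rev-erbs. Per3, a period gene under 10 CPM over the gate, was at 7.887, 1.495, 10.3 and 2.84 CPM, high in the hashtags where the Rev-erbs were high. It rested on 19, 3, 15 and 5 UMIs. Per3 was added after its values were seen, so it is no support for that order. Outside the Treg gates it was 4.48-fold (1.60 to 26.3; 30 against 3 UMIs) higher in hashtag 3 than in hashtag 4. Hashtags 1 and 2 were at a ratio of 0.931-fold (0.488 to 1.94) there. Per1 (33.5 to 39.9 CPM), Dbp (18.4 to 30.1) and Tef (9.97 to 16.4) overlapped among hashtags 1 to 4, with a Dbp ratio of hashtag 3 to hashtag 2 of 1.63-fold (1.03 to 2.60). None of the 6 genes of the Rev-erb corepressor complex had intervals apart.

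**Figure D2:**
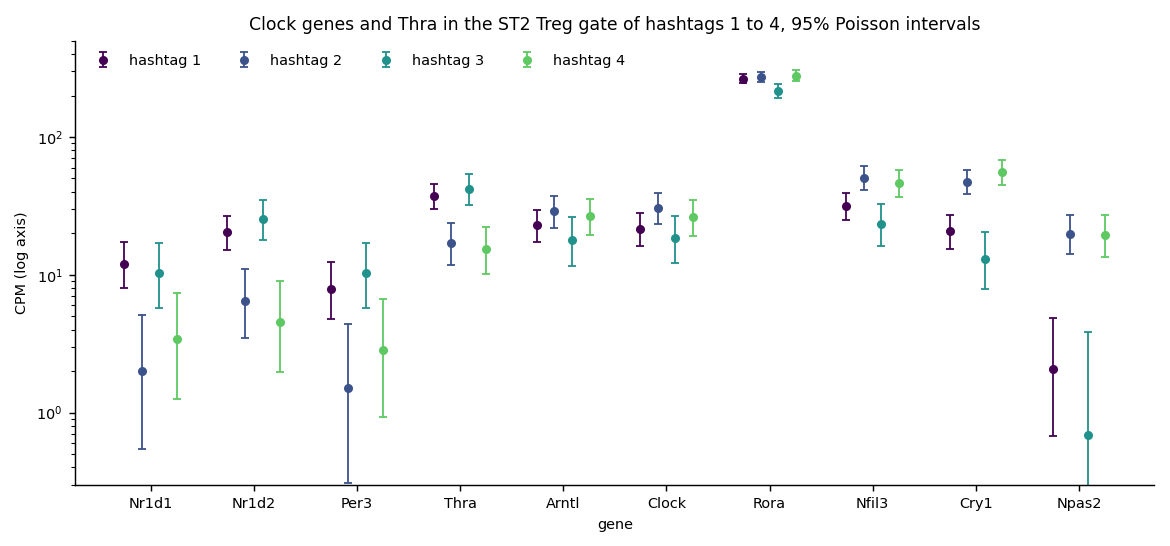
CPM (log y axis) of the members, other clock genes and the Nr1d1 neighbour Thra (x axis) in the ST2 Treg gate of hashtags 1 to 4, with 95% Poisson intervals as bars, of which the lower ends for Per3 in hashtag 2 and Npas2 in hashtag 3 meet or run below the axis limit. Nr1d1, Nr1d2, Per3 and Thra are higher in hashtags 1 and 3, and Nfil3, Cry1 and Npas2 in hashtags 2 and 4. The level intervals of Arntl and of Clock overlap among the 4 hashtags. Per3 was added after its values were seen.

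Genes of the dissociation and AP-1 response moved over the same hashtags. Their 11 genes summed to 12550, 16305, 10449 and 14899 CPM in the ST2 gate of hashtags 1 to 4, which is the order of Nfil3, and to 1489 and 1997 CPM in hashtags 5 and 6. All 11 had intervals apart among hashtags 1 to 4, as did 11.4% of 7548 genes. In Th1-like cells the list summed to 5494, 5634, 4301 and 5722 CPM in hashtags 1 to 4, where Nfil3 was lowest in hashtag 4. Its part in the Nfil3 values was not tested. Endothelial markers, of a cell type high in Nr1d1, summed to 42.3, 41.9, 39.1 and 34.6 CPM in the ST2 gate of hashtags 1 to 4, all 5 genes being detected, and the median mitochondrial share was 2.06% to 2.15%. Innate lymphoid type 2 markers summed to 87.9 to 107 CPM there and to 35.3 and 18.5 CPM in hashtags 5 and 6. Of that list Il17rb and Hs3st1 were at 0 to 2.99 CPM in hashtags 1 to 4. Calca was at 15.1 to 26.9, Bmp7 at 28.9 to 43.8 and Il9r at 32.4 to 42.0 CPM there, against 0 to 2.71, 7.41 to 13.6 and 11.1 to 19.0 CPM in hashtags 5 and 6. The part of such cells in the ST2 values was not tested.

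The levels by gate, pooled over hashtags, ordered the T cell types differently for each member. Rora was highest in the ST2 gate at 245 CPM (234 to 256), then at 172 (123 to 233) in 71 type 17-like cells, 136 (120 to 153) in proliferating cells and 104 (95.9 to 112) in Th1-like cells. It was at 87.6 (71.9 to 106) in the other Foxp3 gate, 61.9 (50.3 to 75.5) in Tfh-like and 23.4 (21.1 to 25.9) in naive-like cells. Type 17-like and proliferating cells overlapped, as did Th1-like and other Foxp3 cells. The ST2, Th1-like and naive-like levels were apart from each other. Ungated T cells were at 98.6 CPM (92.1 to 105). Over hashtags 1 to 4 alone Rora was at 261 CPM (249.9 to 273) in the ST2 gate, 107 (98.7 to 117) in Th1-like, 118 (94.5 to 145.5) in other Foxp3 and 58.8 (50.8 to 67.6) in naive-like cells. The type 17-like interval (144 to 285) overlapped that of the ST2 gate there. The pooled values weight hashtags by their cells, and 1794 and 1183 of the 3880 naive-like cells came from hashtags 5 and 6.

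Nfil3 was at 36.1 CPM (32.1 to 40.5) in the ST2 gate, 27.7 (20.8 to 36.3) in proliferating, 17.9 (11.2 to 27.0) in other Foxp3, 16.5 (13.42 to 20.02) in Th1-like and 3.49 (2.63 to 4.54) in naive-like cells. The ST2 and proliferating intervals overlapped, and the naive-like level lay below all of these. Over hashtags 1 to 4 alone the ST2, Th1-like and naive-like levels were 38.5 (34.2 to 43.1), 17.5 (14.1 to 21.5) and 6.36 CPM (3.94 to 9.72). Type 17-like, Tfh-like and ungated T cells were, over all hashtags, at 13.9 to 21.0 CPM. Nr1d2 was at 41.9 (20.1 to 77.1; 10 UMIs) in type 17-like, 19.3 (15.9 to 23.1) in Th1-like, 13.8 (11.4 to 16.5) in ST2 and 8.82 (7.42 to 10.4) in naive-like cells. In these pooled values the naive-like interval lay below the others, and the Th1-like and ST2 intervals overlapped. Over hashtags 1 to 4 alone Nr1d2 was at 14.01 (11.5 to 16.9) in ST2 and 13.02 CPM (9.43 to 17.5) in naive-like cells, which overlapped, and at 19.2 (15.7 to 23.4) in Th1-like cells. Within hashtags the naive-like value was above the ST2 value in hashtags 2 (11.7 against 6.48 CPM), 4 (6.60 against 4.54) and 6 (8.38 against 7.41). The other Foxp3, Tfh-like, proliferating and ungated T cells were at 9.94 to 19.7 CPM. Nr1d1 was at 6.52 CPM in the ST2 gate (7.07 in hashtags 1 to 4) and under 10 CPM in each T cell gate except the type 17-like one, where 7 UMIs gave 29.4 CPM (11.8 to 60.5).

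Outside the T cells, Nr1d1 was at 44.8 CPM (35.5 to 55.9) in the 339 endothelial barcodes and 38.1 (25.9 to 54.0) in the 100 stromal barcodes. Nr1d2 was at 34.1 (26.0 to 43.8) and 44.2 CPM (31.0 to 61.2) there. For both genes these levels lay above the ST2, Th1-like and naive-like ones. Rorb, a close relative of Rora, was scarce in T cells. Its highest T cell value was in the ST2 gate, at 3.503 CPM (2.346 to 5.031), or 3.796 CPM (2.54 to 5.45) in hashtags 1 to 4. Over all hashtags Th1-like cells were at 1.14 CPM (0.459 to 2.353), an interval that just reached that of the ST2 gate. Naive-like cells were at 0.254 CPM (0.0692 to 0.650).

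**Figure D3:**
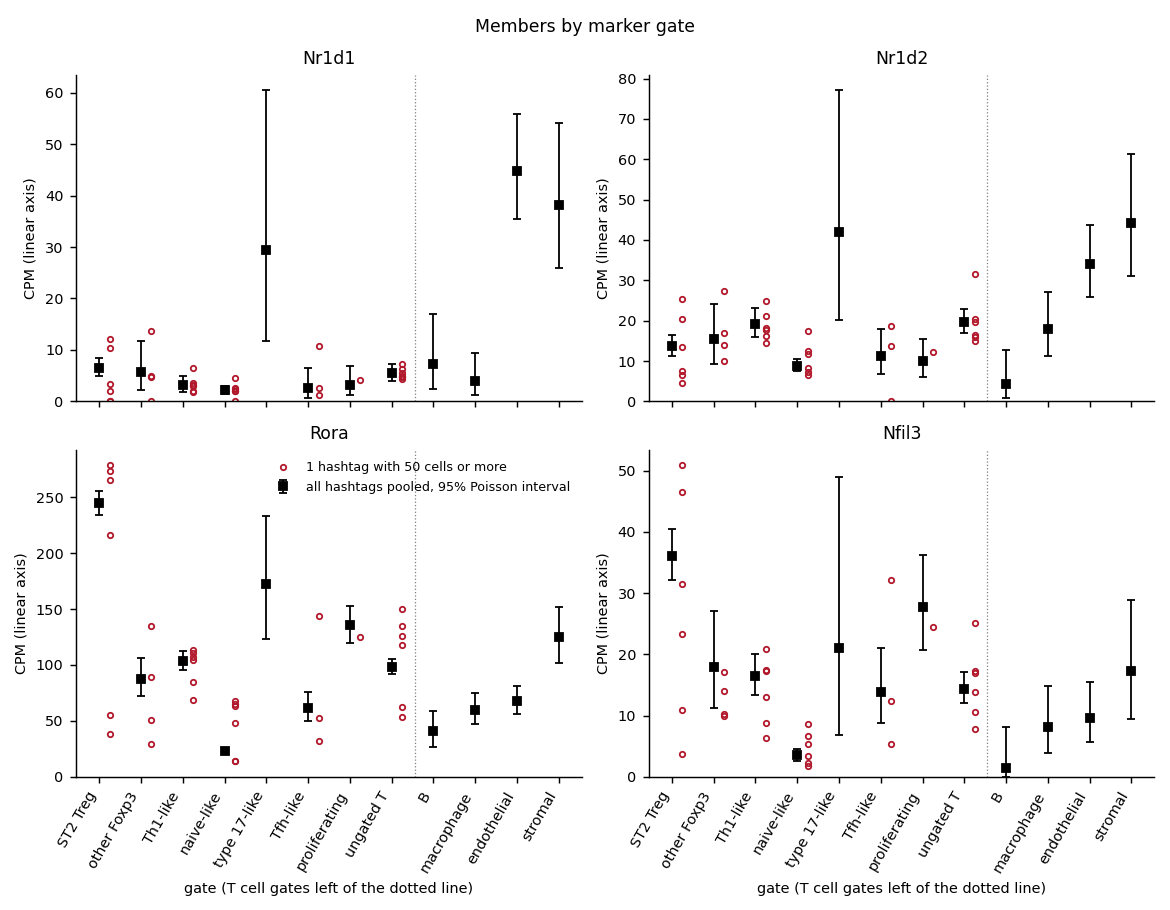
CPM of each member (linear y axes) by marker gate (x axes), with black squares for the gate pooled over hashtags, bars for 95% Poisson intervals and open circles for single hashtags with at least 50 cells. Over all 6 hashtags Rora and Nfil3 are highest in the ST2 Treg gate among the larger T cell gates, and Nr1d1 is highest in endothelial (44.8 CPM) and stromal (38.1 CPM) barcodes.

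Within each hashtag the ST2 gate was set against the Th1-like gate as a log2 ratio of CPM (0.5 added to each count). For Rora the ratios in hashtags 1 to 6 were 1.23, 1.38, 0.97, 1.70, -0.82 and -0.92. The intervals of hashtags 1 to 4 lay above 0, that of hashtag 6 just below 0 (-1.93 to -0.03), and that of hashtag 5 included 0 (-1.85 to 0.06). For Nfil3 they were 0.59, 1.51, 0.43, 2.70, 0.34 and -1.40, the last from 1 UMI against 4, and the intervals lay above 0 in hashtags 1, 2 and 4 and included 0 in hashtags 3 (-0.35 to 1.24), 5 and 6. For Nr1d2 they were 0.16, -1.14, 0.03, -1.94, -0.56 and -0.95. Of these only the interval of hashtag 4 lay off 0 (-3.48 to -0.51). That of hashtag 2 reached past 0 (-2.36 to 0.05), and those of hashtags 1, 3, 5 and 6 included it. Nr1d1, with 54 UMIs against 19, had ratios of 1.67, -0.68, 2.14, -0.12, -0.96 and -2.13. Their median was -0.40 but the pooled ratio was 1.05 (0.30 to 1.91), since hashtags 1 and 3 held 29 and 15 of the 54 UMIs. Hashtags 5 and 6 held none in the ST2 gate, so their ratios rest on the 0.5 added to each count.

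Over hashtags 1 to 4 alone the median log2 ratio was 1.31 for Rora (pooled interval 1.15 to 1.42), 1.05 for Nfil3 (0.79 to 1.49) and -0.56 for Nr1d2 (-0.86 to -0.05). Counted by the sign of the ratio alone, as in every such count below, Rora and Nfil3, 2 of the 3 members at 10 CPM or more, were higher in each of these 4 hashtags, as were 16.5% of 7950 genes. Over all 6 hashtags none of the 3 was, against 4.39% of genes. The stricter rule, at least 2-fold in the same direction in every hashtag with a pooled interval off 0, was met by no member. It was met by 0.126% (higher) and 0.227% (lower) of genes over all hashtags and by 2.06% (higher) over hashtags 1 to 4, where Rora missed it through hashtag 3. With at least 2 Il1rl1 UMIs Rora met it, at 1.44.

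Of the RORE-driven list in hashtags 1 to 4, Npas2, Cry1 and Nfil3 were higher in the ST2 gate in every hashtag, and Npas2 by at least 2-fold in each (10.5 against 0.762 CPM). Of 7950 genes, 16.5% were higher in each of these hashtags and 2.06% met the 2-fold rule, for this list and those below. Npas2 reached 10 CPM through the ST2 gate alone. The list's median log2 ratio was 0.79 with it and 0.62 over the 4 genes at 10 CPM on both sides, against -0.04 over all genes, and over all hashtags, where 4 genes reached 10 CPM, it was 0.27. Among E-box-driven genes Hlf was higher by at least 2-fold in each hashtag (30.2 against 3.998 CPM), Per1 was higher in each by less, and Bhlhe40 was lower in each (55.4 against 97.1 CPM). Their median was 0.14 over 5 genes and -0.15 without Hlf, which reached 10 CPM in the ST2 gate alone. Hlf had 0 UMIs in the Th1-like cells of hashtag 2. In the corepressor complex Ncor1, the scaffold that binds Rev-erbs, was higher in each hashtag (413 against 319 CPM), and the median over 6 genes was -0.04. The dissociation and AP-1 list had a median of 1.64, with all 11 genes higher in each of the 4 hashtags.

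**Figure D4:**
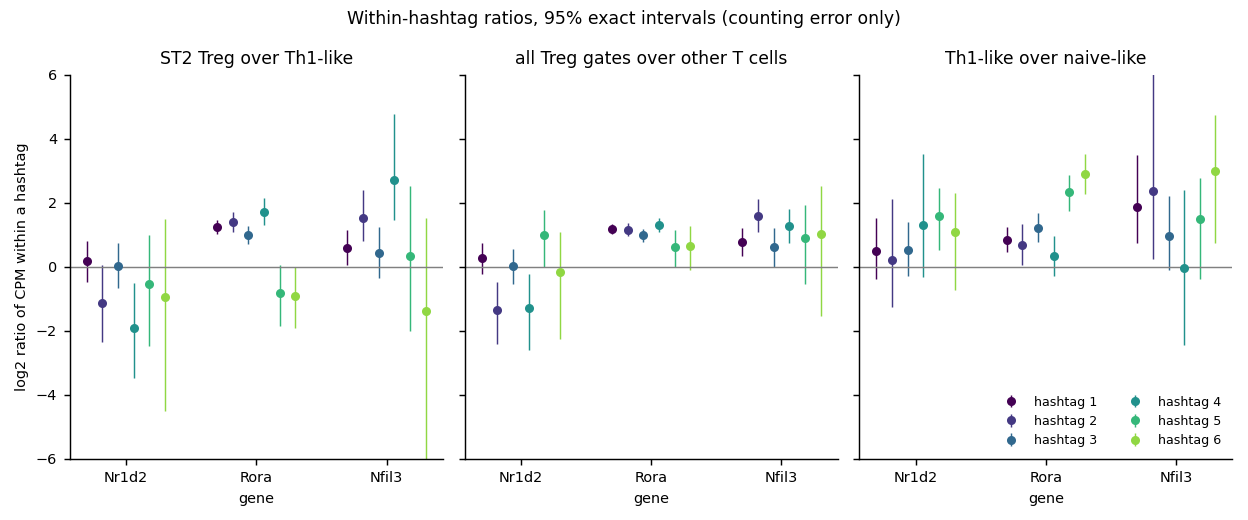
Log2 ratio of CPM within a hashtag (y axis) for Nr1d2, Rora and Nfil3 (x axis) in 3 comparisons, with 1 point per hashtag and bars for exact 95% intervals, some of which run past the axis limits. Rora lies at 0.97 to 1.70 in hashtags 1 to 4 and below 0 in hashtags 5 and 6 (with an interval that includes 0 in hashtag 5) for the ST2 Treg gate over the Th1-like gate, and above 0 in all 6 hashtags in the other 2 comparisons, though some of those intervals include 0.

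All Treg gates together were then set against all other T cells. Rora had log2 ratios of 1.18, 1.16, 0.97, 1.29, 0.62 and 0.64 in hashtags 1 to 6, and Nfil3 of 0.77, 1.58, 0.61, 1.25, 0.90 and 1.02. By the sign of the ratio alone both were higher in the Treg gates in 6 of 6 hashtags, as were 10.8% of 7879 genes, and in hashtags 1 to 4, as were 20.7% of genes there. The intervals included 0 for Rora in hashtags 5 and 6 (-0.00095 to 1.15 and -0.11 to 1.26) and for Nfil3 in hashtags 3 (-0.02 to 1.20), 5 (-0.56 to 1.93) and 6 (-1.54 to 2.53). In hashtags 5 and 6 the ST2 gate, low in adipose Treg genes there, supplied 94 of 173 and 61 of 119 cells of the Treg gates. Nr1d2 had ratios of 0.26, -1.36, 0.02, -1.29, 0.9991 and -0.18 and so no common direction. No member met the 2-fold rule (0.355% of genes higher and 0.0888% lower over all hashtags, 2.05% higher over hashtags 1 to 4). The other T cells of hashtags 5 and 6 were mostly naive-like (1794 of 3120 and 1183 of 1833 cells), and their make-up thus differed from that of hashtags 1 to 4. The dissociation and AP-1 list had a median of 1.30 in this comparison, against 0.01 over all genes.

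The ST2 gate could be set against the other Foxp3 gate in hashtags 1, 3, 5 and 6 only. No member was higher in all 4 (5.57% of genes were), and none met the 2-fold rule (0.125% higher, 0.138% lower). In hashtags 1 and 3 alone all 4 members reached 10 CPM. Rora, Nfil3 and Nr1d2 were higher in the ST2 gate in both, with medians of 1.11, 0.65 and 0.39, and so were 21.6% of genes, while Nr1d1 differed in sign. The pooled intervals of Nfil3 (-0.18 to 2.10) and Nr1d2 (-0.55 to 1.75) included 0, and that of Rora did not (0.80 to 1.61). Between the other Foxp3 gate and the Th1-like gate the medians were -0.36 for Rora, -0.14 for Nfil3 and -0.25 for Nr1d2. No member kept 1 direction in the 4 hashtags (9.89% of genes were higher in each) or met the 2-fold rule (0.251% higher, 0.238% lower).

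Th1-like cells were set against naive-like cells in all 6 hashtags. By the sign of the ratio Rora was higher in each, with a median log2 ratio of 1.02 (0.33 to 2.90 over hashtags), and so was Nr1d2, with 0.79 (0.21 to 1.59). Higher in every hashtag were 21.5% of 7810 genes, and 28.5% over hashtags 1 to 4. Nfil3 was higher in 5 of 6 (median 1.66, -0.04 to 2.98). The median of all genes lay at 0.20 in this comparison, so the smallest Nr1d2 ratio was close to that shift. The interval of Nr1d2 lay above 0 in hashtag 5 alone (0.50 to 2.47), and that of Rora in every hashtag except hashtag 4 (-0.29 to 0.95). No member met the 2-fold rule (0.858% of genes higher and 0.294% lower, and 1.13% higher over hashtags 1 to 4). The 71 type 17-like cells, under 50 in every hashtag, could not be compared within hashtags.

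Across the 32 combinations of gate and hashtag with at least 50 cells, the genes whose log2 CPM was most like each member were ranked by Pearson's r as a description, since the points share 1 library and the hashtags recur. For Rora they were Gata3 (0.93), Atp2b4, Cd44, S100a10 and Ahnak (0.91). For Nfil3 they were Arf1 (0.87), Tgfb1, Samsn1, Mif4gd and Car5b (0.85). Rora and Nfil3 had an r of 0.85 with each other. For Nr1d2 the leading genes reached only 0.71 (Taf15) to 0.68 (Lasp1), with Kremen2, Ccnl2 and Tpp2 between them, and its r with Rora was 0.06. Nr1d1 had too few UMIs (168) to be ranked.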

How the data were processed

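Droplet 3′ single-cell RNA was read in 1 pooled library with 1 hashtag library. The deposited values are UMI counts, per the file headers made with cellranger 4.0.0. Cell Ranger 6.0, Seurat 3 and the build mm10 are listed in the submitters' processing notes. No source used here states how reads were assigned to strands. Hashtags were called on 22952 shared barcodes with HTODemux (Seurat 5.3.0, R 4.3.3, positive quantile 0.99), giving 14879 singlets, 5804 doublets and 2269 negatives, and doublets and negatives were left out. Hashtags 7 to 10 held too few counts and were not used. Counts were summed per hashtag and marker gate with numpy 2.4.6 and scipy 1.17.1 and given as CPM with exact Poisson intervals. Ratios used a prior count of 0.5 and hashtags in which both sides had 50 cells or more, and shares of genes were taken over genes at 10 CPM or more that mark no gate. A gate needed 2 distinct markers, and 963 of 2036 Th1-like and 727 of 3880 naive-like cells had just 2. The scripts were tested on simulated data. Named were the 4 members, Rorb, Thra, the genes of 4 lists at 10 CPM or more, and the 5 genes most like each member with at least 200 UMIs. Per3 was added after its values were seen, and 1 other gene of the rule is not reported here. The members and lists were chosen with earlier results of these data known. The reference table of names held 54349 of the 55487 gene IDs. Start regions and positions are from RefSeq (GRCm38.p6).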

Additional observations from a re-analysis of the deposited data

How the results depend on the processing

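No paired analysis was possible because the labels map no hashtag to a group and hold no replicate numbers. Over 42 results and 414 alternative settings, 331 stayed near the main value, 83 moved and 0 reversed a called direction. The members' ratios between hashtags 1 to 4 in the ST2 and Th1-like gates, and over all hashtags in naive-like cells, moved by more than their counting error under none of the settings run on them, though the calls on Rora (ST2 gate) and Nfil3 (Th1-like gate) changed as given with their values. The limits are the 1 library, the unmapped hashtags and the low counts of Nr1d1.

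The ratios below are medians of log2, and the counts are genes at least 2-fold apart in every hashtag, higher and then lower. Over all hashtags these counts were 10 and 18 for ST2 against Th1-like, 10 and 11 for ST2 against other Foxp3, 20 and 19 for other Foxp3 against Th1-like, 67 and 23 for Th1-like against naive-like, and 28 and 7 for all Treg gates against other T cells. The cause of each move was not tested, except that fewer hashtags make the every-hashtag rule easier to meet.

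Hashtags 1 to 4 alone, chosen after seeing the data, gave 1.31 for Rora, 1.05 for Nfil3 and 0.77 for Nr1d1 in ST2 against Th1-like, with 164 and 64 genes. They gave Rora 1.11 in ST2 against other Foxp3 (103 and 108 genes), Rora 0.75 in Th1-like against naive-like (49 genes lower), and Rora 1.17 and Nr1d2 -0.64 in all Treg gates (163 and 76 genes). At least 2 Il1rl1 UMIs, also chosen after seeing the data, gave 1.44 for Rora, 1.25 for Nfil3 and 0.89 for Nr1d1 in ST2 against Th1-like (202 and 99 genes) and Rora 1.30 in ST2 against other Foxp3 (120 and 135 genes). At least 3 distinct markers gave 1.45, 1.27 and 1.52 in the same order (179 and 92 genes), Rora 1.11 (97 and 119 genes) in ST2 against other Foxp3, Nfil3 0.95 in Th1-like against naive-like (118 and 35 genes), and 54 and 33 genes in other Foxp3 against Th1-like.

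The stricter cell filter gave 25 genes lower in ST2 against other Foxp3, 40 and 42 in other Foxp3 against Th1-like, and Nr1d2 -0.37 in all Treg gates. CPM without mitochondrial and ribosomal genes gave Rora 0.82 and 50 genes lower in Th1-like against naive-like, and 33 genes higher in other Foxp3 against Th1-like. Centring on all genes gave the same Rora value of 0.82. A prior count of 2 gave 6 and 11 genes in ST2 against Th1-like, 2 higher in ST2 against other Foxp3, 11 lower in Th1-like against naive-like and in other Foxp3 against Th1-like, and in all Treg gates Nfil3 1.18 with 57 and 0 genes. The top tag rule gave 6 genes higher in ST2 against Th1-like and 16 in all Treg gates.

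Leaving out 1 hashtag at a time, the counts ranged from 11 to 43 (without hashtag 5) and 18 to 31 (without hashtag 5) in ST2 against Th1-like, 12 to 43 and 23 to 28 in ST2 against other Foxp3, 34 to 42 and 27 to 43 in other Foxp3 against Th1-like, 24 to 35 lower in Th1-like against naive-like, and 29 to 70 and 6 to 15 in all Treg gates, where Rora ranged from 0.97 to 1.16.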
